A study of Mus musculus with 54 samples.

Results

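Stratified epithelial and epidermal genes were followed through the differentiation of murine embryonic stem cells (ESCs). They are 9 genes of 14104 that the arrays measured: Trp63, Krt5, Krt14, Krt15, Krt4, Krt13, Krt6a, Krt17 and Sprr1a. They were chosen by symbol from the platform annotation, and each was read from its probe set with the highest mean over all 54 arrays. The cells were CGR8, a male ESC line of the 129 strain, in 3 lines: untransfected wild-type cells (WT), cells transfected with a non-targeting scrambled shRNA plasmid (SCR) and cells in which a plasmid with an shRNA depletes the mRNA of Mageb16 (KD). Each line was sampled as undifferentiated ESCs on day 0 and as embryoid bodies (EBs) on days 2, 4, 12, 15 and 22, with 3 Affymetrix Mouse Genome 430 2.0 arrays for each of the 18 groups. EBs are balls of cells that form in hanging drops and differentiate without a directed signal. SCR and KD cells carried pGFP-V-RS plasmids and had been selected with puromycin as polyclonal populations, whereas WT cells had neither. Each shRNA was present in 1 cell line, so an effect of the shRNA and a property of that line cannot be told apart. Nothing in the labels ties the 3 arrays of a group to separate cultures, and the p values then measure only the spread between arrays.

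Stratified epithelia, such as those of the skin, mouth, oesophagus and forestomach, renew themselves from a basal layer. Trp63 encodes p63, the transcription factor on which the formation of these epithelia depends. Keratins build the intermediate filaments of epithelial cells as pairs of a type I and a type II chain, and the pair made differs between layers and sites. As cells leave the basal layer they make precursors of the cornified envelope, a protein shell crosslinked under the plasma membrane, and Sprr1a is such a precursor.

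The DNA just upstream of a gene's start is shown for the members that have it in the reference, because motifs of transcription factors known from stratified epithelium can be looked for there. RefSeq windows on GRCm38.p6 began at the 5′ end of the gene for 3 of 9 members, Krt5, Krt13 and Sprr1a. The 250 bases before each start are given 5′ to 3′ on the strand of the gene, which was the minus strand in each case. Capitals mark matches to AP-1 (TGANTCA, which reads the same on both strands), to the TATA box (TATAAA, on the strand of the gene) and to the p53/p63 element of 10 bases (on both strands), of which a full p53/p63 site holds a pair.
Krt5, chr15:101712906-101713155: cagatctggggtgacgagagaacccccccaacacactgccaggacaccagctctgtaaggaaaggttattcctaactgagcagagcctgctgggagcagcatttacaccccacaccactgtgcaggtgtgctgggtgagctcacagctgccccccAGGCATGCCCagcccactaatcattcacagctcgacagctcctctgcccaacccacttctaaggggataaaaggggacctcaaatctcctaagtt
Krt13, chr11:100121567-100121816: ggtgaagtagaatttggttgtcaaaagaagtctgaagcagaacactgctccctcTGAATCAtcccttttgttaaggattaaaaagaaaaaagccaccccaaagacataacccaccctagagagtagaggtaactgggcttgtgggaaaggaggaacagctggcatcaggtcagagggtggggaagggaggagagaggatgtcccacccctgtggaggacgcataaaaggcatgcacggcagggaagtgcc
Sprr1a, chr3:92485882-92486131: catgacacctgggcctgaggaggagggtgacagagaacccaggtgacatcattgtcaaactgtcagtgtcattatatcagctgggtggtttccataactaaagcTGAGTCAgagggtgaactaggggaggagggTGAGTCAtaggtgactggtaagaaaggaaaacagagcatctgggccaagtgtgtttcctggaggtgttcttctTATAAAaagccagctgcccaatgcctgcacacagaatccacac
The window of Sprr1a held 2 AP-1 matches, at 146 to 140 and 116 to 110 bases upstream, and a TATA box match at 43 to 38. That of Krt13 held 1 AP-1 match, at 196 to 190 bases upstream. That of Krt5 held neither, but had 1 p53/p63 element at 95 to 86 bases upstream. Of 32851 windows of the same length in the RefSeq table, 6.75% held the AP-1 motif, 7.59% the TATA box and 7.13% the p53/p63 element. The AP-2 motif (GCCNNNGGC, on both strands, in 13.7% of windows) and the Grainyhead motif (AACNGGTT, on both strands, in 1.79%) had no match in these 3 windows. A match to such short letters is a description and not a site in use. In gene order on the chromosome, Krt13 and Krt15 were next to each other with 0 protein-coding genes between them, 2 lay between Krt15 and Krt14, and 1 between Krt14 and Krt17. Krt6a and Krt5 were also direct neighbours, and 7 protein-coding genes lay between Krt5 and Krt4.

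The values were log2 signals from RMA, a method that corrects background, normalizes arrays to a common distribution and summarises the probes of a set. The medians of the arrays lay between 5.94 and 6.26 and their lower quartiles between 4.23 and 4.51. Mageb16 itself gave 7.11, 7.0 and 7.06 in KD ESCs on day 0, against 10.09, 10.09 and 10.03 in SCR ESCs. In 22-day EBs it gave 7.03, 7.43 and 6.89 in KD and 9.75, 9.36 and 9.52 in SCR, so the transcript stayed lower in KD. A gene passed the threshold in limma at a Benjamini-Hochberg adjusted p under 0.05 and a change of at least 2-fold, that is, at least 1 on the log2 scale. Differences are log2 differences with the moderated standard error (SE). Changes that start from a signal as dim as the lower quartile, or dimmer, have an inexact size. From day 12 on this held in WT and SCR for Trp63, Krt13 and Krt17 and, but for a WT array of day 15, for Krt14, for Krt15 in SCR on days 12 and 22 and in WT on day 22, for Krt4 in SCR on days 12 and 15, and for Sprr1a in SCR on day 15.

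The 9 genes were higher in KD EBs than in both other lines in 22-day EBs, and they came up at different times. In KD against SCR, 0 of 9 members passed on day 0 (0.709% of all genes were higher) and 0 on day 2 (2.34%). On day 4 it was 1 (5.67%), on day 12 it was 3 (8.66%), on day 15 it was 6 (10.3%) and on day 22 it was 9 of 9 (11.9%). In KD against WT, which has the KD arrays in common with the first comparison, 0 members passed on day 0 (0.333%), day 2 (0.0567%) and day 4 (0.0993%). There, 2 passed on day 12 (5.63%), 5 on day 15 (12.2%) and 9 on day 22 (15.8%). At an unadjusted p under 0.05, limma gave 1 member on day 0 (29.0% of all genes) and 0 on day 2 (40.3%) against SCR, and 0 on days 0 (29.7%), 2 (20.4%) and 4 (12.2%) against WT. On days 15 and 22 all 3 KD arrays lay above all 3 SCR arrays and all 3 WT arrays for 9 of 9 members. Of all genes, 35.4% were separated from SCR in this way on day 15 and 31.5% on day 22, and 39.6% from WT on both days. The median difference of the members on day 22 was 3.45 against SCR, where the median of all genes was -0.05, and 3.28 against WT, where it was 0.01. In bulk RNA, more cells of a type and more RNA in each cell cannot be told apart.

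**Figure D1:**
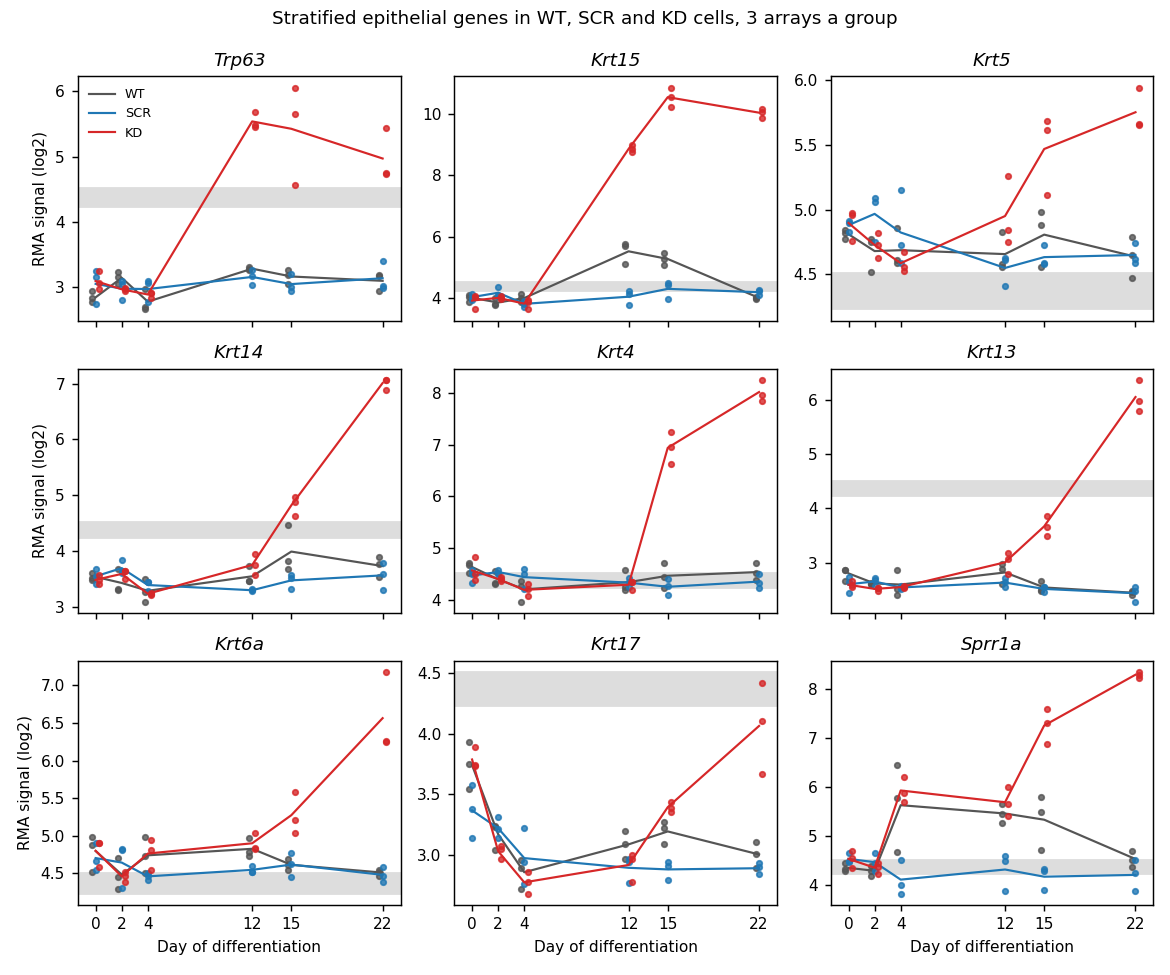
RMA signal (log2, vertical axis) of each of the 9 genes by day of differentiation (horizontal axis), with each array as a point and a line through the mean of the 3 arrays of WT, SCR and KD; the grey band spans the lower quartiles of the arrays, 4.23 to 4.51. Krt15 and Trp63 rise in KD by day 12, Krt4 by day 15, and Krt13 and Krt14 mainly between days 15 and 22, while SCR stays low in all panels; the vertical axes differ between panels.

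Trp63, the transcription factor among the members, was higher in KD from day 12 on. In KD EBs its signals were 5.48, 5.46 and 5.68 on day 12, 6.06, 4.56 and 5.66 on day 15, and 4.73, 5.44 and 4.74 on day 22. On every day, the WT and SCR arrays lay between 2.65 and 3.40, below every KD array from day 12 on, and on days 0 to 4 the KD arrays were in the same low range, at 2.83 to 3.24. KD exceeded SCR by 2.39 (SE 0.194, limma adjusted p = 1.21e-13) on day 12, by 2.39 on day 15 and by 1.84 (adjusted p = 1.12e-10) on day 22. The differences from WT were 2.26, 2.27 and 1.88. Between days 12 and 22 the KD signal went from 5.54 to 4.97 on average, a change of -0.57 (adjusted p = 0.0135) that did not reach 2-fold, although all 3 arrays of day 22 lay below those of day 12.

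Krt15, a type I keratin of basal cells that is used as a mark of their less active stem cells, had the largest differences of the group. Its signals in KD were 8.99, 8.76 and 8.85 on day 12, 10.87, 10.23 and 10.57 on day 15, and 10.08, 10.18 and 9.89 on day 22. SCR EBs gave 4.14, 3.75 and 4.22 on day 12 and 4.26, 4.08 and 4.21 on day 22. No KD array came near an SCR array, and KD exceeded SCR by 4.83 (SE 0.149, adjusted p = 2.07e-26), 6.26 (3.41e-30) and 5.87 (3.66e-30) on days 12, 15 and 22, which is 28.4-, 76.8- and 58.4-fold. WT EBs showed a smaller and passing rise, with 5.11, 5.70 and 5.75 on day 12, 5.08, 5.47 and 5.26 on day 15, and 3.95, 4.00 and 4.04 on day 22. The WT arrays of days 12 and 15 lay above those of day 0, at 3.86 to 4.10, and those of day 22 overlapped with them. KD exceeded WT by 3.35, 5.29 and 6.05.

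Krt5 and Krt14 encode the type II and type I chains that pair in basal keratinocytes, and both were higher in 22-day KD EBs. Krt14 gave 3.74, 3.94 and 3.56 in KD on day 12, 4.62, 4.87 and 4.96 on day 15, and 7.07, 7.07 and 6.89 on day 22. In 22-day EBs, SCR gave 3.59, 3.30 and 3.79 and WT 3.89, 3.53 and 3.76, far below KD. The difference from SCR was 1.35 (SE 0.139, adjusted p = 5.93e-11) on day 15 and 3.45 (1.14e-23) on day 22, and that from WT was 0.83 on day 15, below 2-fold, and 3.28 on day 22. By the other probe set of Krt14, KD was less than 2-fold above SCR on day 15. Krt5 gave 5.66, 5.94 and 5.65 in 22-day KD EBs, against 4.74, 4.62 and 4.59 in SCR and 4.65, 4.79 and 4.47 in WT. The groups did not overlap, and the differences of 1.10 (SE 0.136, adjusted p = 5.09e-09) and 1.11 (2.32e-09) stood just above the 2-fold limit. The Krt5 difference on day 15 was 0.83 against SCR and 0.66 against WT. With the arrays centred on their medians, the Krt5 difference from WT on day 22 was 0.963, and with a further quantile normalization 0.994, both under 2-fold.

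Krt4 and Krt13, which form the type II and type I pair of the suprabasal layers of mucosa such as that of the oesophagus, both passed from day 15 on. Krt4 was at 4.33, 4.34 and 4.19 in KD on day 12, within the range of WT and SCR, and then at 7.24, 6.62 and 6.96 on day 15 and 7.84, 8.26 and 7.96 on day 22. WT and SCR gave 3.96 to 4.71 over all days, with no overlap on days 15 and 22. KD exceeded SCR by 2.69 (SE 0.138, adjusted p = 9.45e-20) on day 15 and 3.67 (1.21e-24) on day 22, and WT by 2.48 and 3.49. Krt13 gave 3.65, 3.49 and 3.86 in KD on day 15 and 5.80, 6.37 and 5.98 on day 22. The SCR arrays of those days gave 2.28 to 2.55 and the WT arrays 2.40 to 2.65. Its difference from SCR was 1.15 (SE 0.113, adjusted p = 1.63e-11) on day 15 and 3.62 (2.99e-27) on day 22, and from WT 1.13 and 3.61.

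Krt6a and Krt17 are a type II and a type I keratin of hair follicle and nail, and keratinocytes make them after wounding. Krt6a gave 6.25, 7.18 and 6.26 in 22-day KD EBs, against 4.38, 4.59 and 4.47 in SCR and 4.54, 4.52 and 4.47 in WT. These arrays did not overlap, and the difference was 2.08 (SE 0.168, adjusted p = 6.55e-14) against SCR and 2.05 (6.52e-14) against WT. Krt17 fell in KD from day 0 to day 4 and rose again between days 12 and 22. WT signals went from 3.54, 3.75 and 3.93 on day 0 to 2.72, 2.96 and 2.89 on day 4, a difference of -0.88 that did not reach 2-fold. KD cells gave 3.73, 3.89 and 3.74 on day 0, 2.68, 2.86 and 2.78 on day 4, and 3.67, 4.42 and 4.10 on day 22. The day 22 arrays overlapped with those of day 0, and their difference of 0.28 did not reach 2-fold. Against SCR, at 2.90, 2.93 and 2.84 on day 22, KD Krt17 was higher by 1.17 (SE 0.121, adjusted p = 6.7e-11), and against WT, at 3.11, 3.01 and 2.89, by 1.06 (5.27e-10). All Krt17 values lay under the lower quartiles of the arrays or close to them, the highest being 4.42. Without the second KD array of day 22, the difference of Krt17 was 0.995 from SCR and 0.882 from WT, under 2-fold, and with median centring or quantile normalization that from WT was 0.91 or 0.945.

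Sprr1a moved first. On day 4 it gave 5.71, 5.89 and 6.21 in KD and 4.68, 6.45 and 5.78 in WT, but 4.51, 3.83 and 4.01 in SCR. KD and WT overlapped there, and KD exceeded SCR by 1.82 (SE 0.259, adjusted p = 1.63e-07). KD then gave 6.0, 5.42 and 5.67 on day 12, 7.60, 6.88 and 7.31 on day 15, and 8.24, 8.30 and 8.36 on day 22. In 22-day EBs, SCR was at 4.51, 4.25 and 3.88 and WT at 4.38, 4.71 and 4.52, so the 3 KD arrays stood apart. The difference was 3.09 on day 15 and 4.09 (adjusted p = 4.17e-17) on day 22 against SCR, and 1.92 and 3.76 against WT. On day 12 it was 1.37 against SCR, and 0.23 against WT, where the arrays overlapped.

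**Figure D2:**
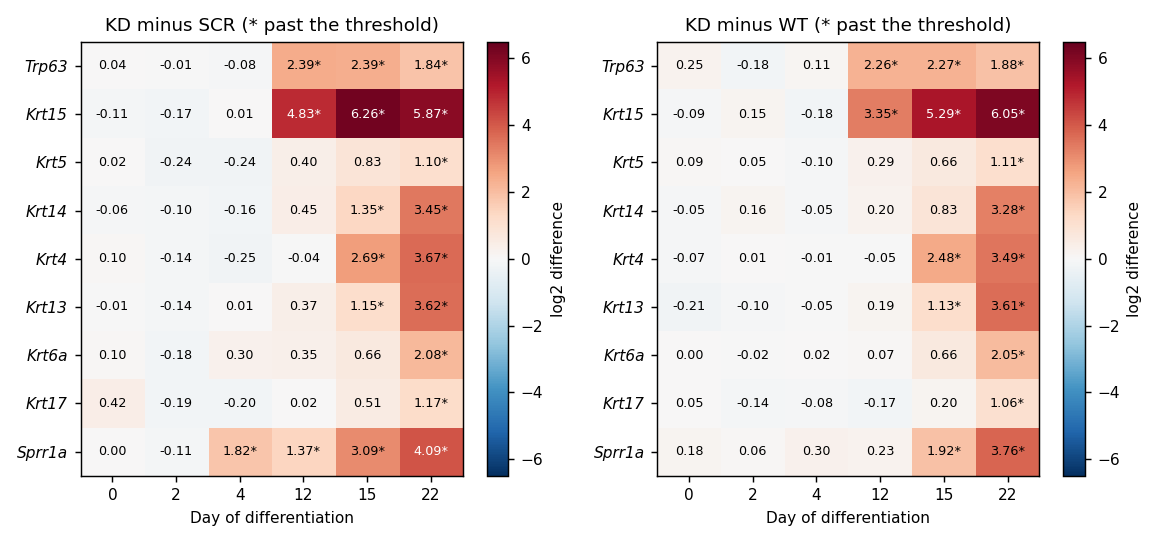
Log2 difference (colour and number) of KD minus SCR (left) and KD minus WT (right) for each of the 9 genes (rows) on each day (columns), with an asterisk where the gene passed the threshold in limma. Krt15 has the largest difference on days 12, 15 and 22, up to 6.26. Krt5, Krt6a and Krt17 pass on day 22 alone, at 1.10, 2.08 and 1.17 against SCR.

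Against day 0 of the same line, 0 of 9 members passed on day 2 in any line, with 1 in WT (58.5% of all genes), 0 in SCR (56.9%) and 2 in KD (58.0%) at an unadjusted p under 0.05 in limma. Within the KD line on day 4, 1 member was higher, Sprr1a (12.7% of all genes), and 1 was lower, Krt17 (7.98%), which fell by 1.01. On day 12, 3 members were higher (20.2%), on day 15, 6 (22.4%), and on day 22, 7 (24.7%), all but Krt5 and Krt17. The fall of Krt17 on day 4 was -0.962 without the second KD array of day 0 and -0.967 without the first of day 4, and the rise of Krt13 on day 15, at 1.08, was 0.98 without the third KD array of that day. In WT, Sprr1a was higher on day 4 by 1.28 (1 member, 12.7% of all genes), Krt15 and Sprr1a on day 12 (2 members, 12.5%) and Krt15 on day 15 (1 member, 11.4%). The WT rise of Sprr1a on day 4 was 0.873 without the second WT array. In SCR, 0 of 9 members passed against day 0 on any day. At an unadjusted p under 0.05, limma gave 1 member in SCR on day 4 (60.7% of all genes), 2 on day 12 (66.0%), 1 on day 15 (70.8%) and 1 on day 22 (71.7%).

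The SCR and WT lines themselves differed for Krt15 and Sprr1a. In SCR against WT, 1 member was lower on day 4 (Sprr1a, 5.27% of all genes), 2 on day 12 (Krt15 and Sprr1a, 3.00%) and 1 on day 15 (Sprr1a, 3.37%). Krt15 was lower in SCR by 1.48 on the log2 scale on day 12 (adjusted p = 2.5e-10), where its SCR arrays lay below its WT arrays. Sprr1a was lower by 1.52 on day 4, by 1.14 on day 12 and by 1.16 on day 15. On day 22, 0 of 9 members passed in limma, and 0 had an unadjusted p under 0.05 (50.7% of all genes had). Without the second SCR array, the day 12 difference of Sprr1a was -0.927, and without the second WT array, that of day 15 was -0.933.

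The rise from day 12 to day 22 was tested as a difference between the lines. Within KD, 7 members were higher on day 22 than on day 12 (9.63% of all genes), all but Krt5 and Trp63. Within WT, 1 was lower, Krt15 (3.57%), which fell by 1.52. Within SCR, 0 passed in limma, and 0 had an unadjusted p under 0.05 (48.5% of all genes had). The change in KD exceeded the change in SCR for 7 members (7.06%) and that in WT for 7 (10.9%). Krt4 had the largest value against SCR, at 3.71 (SE 0.195, adjusted p = 6.35e-19), followed by Krt13 at 3.24 and Krt14 at 3.00. Trp63 and Krt15, which were already high on day 12, gave -0.55 and 1.04 against SCR. The value of Krt15 lay between 0.945 and 0.985, under 2-fold, without the second KD array of day 12 or of day 22, the first or the third SCR array of day 12, or the second SCR array of day 22. That of Krt17, at 1.15, was 0.972 without the second KD array of day 22.

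Krt4, Krt13, Krt14 and Krt6a were also measured by other probe sets, which moved the same way in 22-day EBs but not to the same extent. The second probe set of Krt4 (1438394_x_at) gave 8.04, 8.31 and 7.80 in 22-day KD EBs and a difference of 4.21 from SCR. That of Krt14 (1460347_at) gave 6.56, 6.20 and 6.34, and a difference of 2.88. That of Krt13 (1441863_x_at) gave 4.03, 4.86 and 3.78, and a difference of 1.74. The probe set of Krt14 in use was 1423935_x_at, which passed against SCR on day 15. By 1460347_at, Krt14 had means of 4.25 in KD and 3.6 in SCR on day 15, less than 2-fold apart. All 3 KD arrays lay below the lower quartile there. The largest gap was within Krt6a. Its probe set in use, 1422783_a_at, had a mean of 4.79 over all arrays, and 1422784_at had 4.78, a near tie. By 1422784_at, Krt6a gave 6.36, 6.32 and 6.38 in KD on day 12, 7.46, 7.17 and 7.48 on day 15, and 9.52, 10.08 and 9.08 on day 22. These arrays lay above all those of SCR, and the difference was 2.22 on day 12, 3.20 on day 15 and 5.19 (36.5-fold, adjusted p = 1.09e-26) on day 22, so by this probe set the gene passed from day 12 on. WT showed a smaller and passing rise by 1422784_at. Its means were 4.02 on day 0, 5.08 on day 12, 4.68 on day 15 and 4.17 on day 22. As the mean of all probe sets of a gene, the day 15 differences from SCR were 0.762 for Krt13 and 0.997 for Krt14, under 2-fold. The third, 1427700_x_at, gave a difference of 1.65 on day 22. Affymetrix names probe sets with _x_at when some of their probes can also bind transcripts of other genes, and with _a_at when they bind several transcripts of the same gene. Signal from a near-identical keratin such as Krt6b may be part of that of Krt6a, and how much was not tested.

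**Figure D3:**
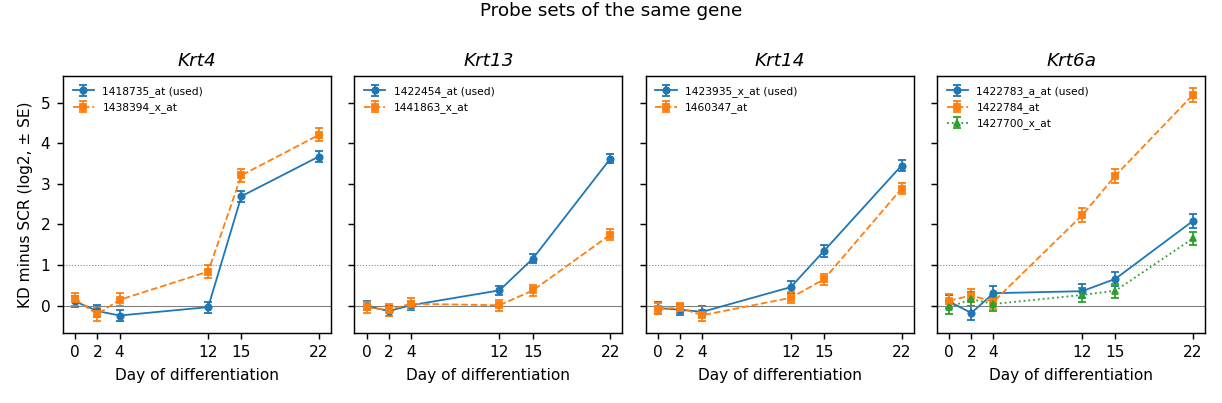
Log2 difference of KD minus SCR (vertical axis, bars show ± SE) by day (horizontal axis) for every probe set of the 4 genes that have several; the dotted line marks 2-fold. The probe sets of a gene rise together on day 22, but those of Krt6a differ widely, at 2.08, 5.19 and 1.65.

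The profiles of the members over the 18 group means were alike to different degrees. The values are correlations over groups that have lines and days in common, given without a test. Krt13, for one, had group means of 2.43 to 3.00 except in KD on days 15 (3.67) and 22 (6.05). For such genes a few late KD groups largely set r. Pearson's r was 0.98 for Krt13 and Krt6a, 0.97 for Krt13 and Krt14, and 0.96 for Krt15 and Trp63, which both were high by day 12. The lowest was 0.28, for Krt17 and Trp63. Among 4101 genes whose group means spanned at least 2 on the log2 scale, those most like Krt4 were Ctrb1 (r = 0.99), Anxa10 and Reg1. Those most like Krt15 were Pamr1, Erg and Rtl3, and those most like Trp63 were Paqr9, Gm16551 and Adamts5. Krt13 and Krt6a had the same 3 genes, Spink4, Cyp2j5 and Stfa3. Those most like Krt14 were Eln, Steap4 and Cyp2d26, those most like Krt5 were Bbox1, Mbl1 and Cldn18, and those most like Sprr1a were Aqp1, Papss2 and Ctse. Krt17 had the least similar leaders, Gstp3 (r = 0.90), Sdcbp2 and Inhbb.

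**Figure D4:**
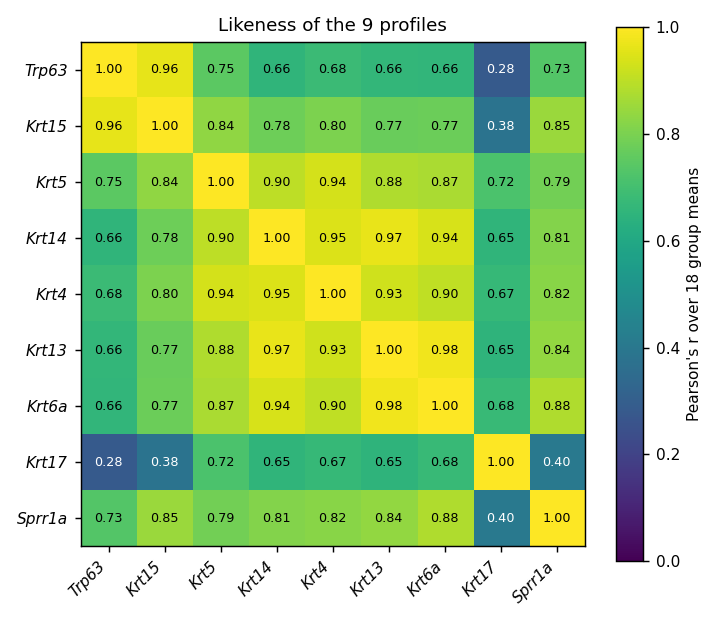
Pearson's r between each pair of the 9 genes over the 18 group means of line and day (colour and number). Krt14, Krt4, Krt13 and Krt6a have values of 0.90 to 0.98 with each other, Trp63 and Krt15 have 0.96, and Krt17 has the lowest values, down to 0.28.

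Other genes of the stratified epithelium are given from lists. Each list was chosen with earlier results of these data known. In 22-day KD against SCR EBs, 6 of 11 measured genes of basal keratinocyte adhesion passed, all higher (11.9% of all genes were higher and 4.61% lower), with a median of 1.06. They were Perp, which takes part in desmosome adhesion (3.00, adjusted p = 9.46e-24), Cd44, a hyaluronan receptor (2.67), Lamb3 and Lama3, chains of the laminin of the skin's basement membrane (2.44 and 1.60), Plec (1.53) and Col17a1, a hemidesmosome collagen (1.06). Col17a1 and Lamb3 lay under the lower quartile in SCR and WT, and Col17a1 had a mean of 4.33 in KD. The other measured genes did not pass. Their means in KD and SCR were 8.61 and 9.18 for Dst, 9.86 and 9.91 for Itga6, and 4.78 and 5.11 for Col7a1. They were 6.94 and 6.29 for Itga3, and 6.23 and 6.11 for Cdh3. Against WT, 4 of 11 passed (15.8% of all genes were higher), and Lama3 had 0.79. Of the 7 measured keratins that were listed as other stratified keratins, 2 rose against SCR (11.9% of all genes), Krt6b (3.01) and Krt23 (2.29). Krt6b is near-identical to the member Krt6a, and how far their signals mix was not tested. Krt1, the type II keratin of the epidermal spinous layer, had 0.85 and its partner Krt10 0.82, both short of 2-fold; the Krt1 signal lay under the lower quartile in all 3 lines. Krt10 passed against WT at 1.15.

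Of 15 genes of the cornified envelope and granular layer, 7 rose and 0 fell in 22-day KD against SCR EBs, with a median of 0.82. Of all genes, 11.9% were higher and 4.61% lower there. Dmkn rose by 3.46, Krtdap by 2.95, Scel (sciellin, a precursor of the envelope) by 2.88 and Calml3 by 2.51. The others were Sprr3 (2.24), Ppl (periplakin, 2.02) and Ivl (involucrin, 1.87), while Lor, the major protein of the mature envelope, had 0.74. Of 8 desmosome genes, 3 rose (11.9% of all genes), Dsc2 by 3.05, Dsg2 by 2.20 and Dsp by 2.10. Jup, Pkp2, Pkp3, Dsc1 and Dsc3 did not pass against SCR. Dsc1 and Dsc3 lay below the lower quartile in every line, with means of 3.00 and 3.29 in KD and 2.61 and 3.37 in SCR. Against WT, Dsc2 had 1.18 and passed, and Dsg2 and Dsp had 0.45 and 0.62 and did not. Of 20 epidermal transcription factors, 4 rose (11.9% of all genes) and 3 fell (4.61%). Ehf rose by 3.89, Elf5 by 1.21, Elf3 by 1.04 and Id1 by 1.29, and Grhl2 fell by 1.87 on the log2 scale, Sox2 by 1.33 and Tfap2c by 1.21. Sox2 is also counted in the list of pluripotent cells. Tfap2a, which acts early in surface ectoderm, had 0.26. Against WT, 5 rose and 4 fell (15.8% of all genes were higher and 7.16% lower). Ehf (3.37), Tfap2b (3.16), Tfap2a (1.67), Elf5 (1.18) and Hopx (1.17) were higher, and Grhl2 (-1.91), Tfap2c (-1.29), Ovol2 (-1.10) and Sox2 (-1.02) lower. Of these, Tfap2a, Tfap2b and Hopx also passed as higher in SCR against WT on day 22 (3 of 20, 6.71% of all genes). Their means in WT, SCR and KD were 4.61, 6.02 and 6.28 for Tfap2a, 3.29, 6.99 and 6.45 for Tfap2b, and 9.19, 10.71 and 10.36 for Hopx. Elf3 (0.64) and Id1 (0.71) did not pass against WT.

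Markers of other cell types moved in the same arrays, and their part in the members' values was not tested. In the comparison of KD and SCR on day 22, 11.9% of all genes were higher and 4.61% lower. These shares apply to the counts against SCR of every list below. Among genes of simple epithelium, 7 of 15 passed as higher in that comparison, led by Krt20 (4.60), Krt19 (4.50) and Krt7 (3.32). The summed linear signal of the list was 20000 to 22053 in KD, 7656 to 9601 in SCR and 18368 to 19282 in WT. The 7 measured genes of the gastric and oesophageal list were stomach genes: Cym, Gkn1, Gkn2, Gkn3, Tff1, Tff2 and Atp4a. Of these 7, 6 were higher, with a sum of 17693 to 20699 in KD, 257 to 333 in SCR and 861 to 959 in WT. They were led by Cym, the milk-clotting protease of the stomach (9.67), which also had the highest KD mean of this list, at 13.72 on the log2 scale. Of 11 genes of visceral endoderm and liver, 9 were higher, led by Ambp (7.64) and Alb (7.51), with a sum of 41141 to 46141 in KD, 1354 to 2687 in SCR and 9950 to 16902 in WT. The other 2, Amn and Cubn, were lower in KD, short of the threshold against SCR. Amn had means of 5.43 in KD, 6.41 in SCR and 7.87 in WT, and Cubn 7.31, 8.26 and 9.62. Against WT, 6 of 11 passed as higher and 2, Amn and Cubn, as lower (15.8% and 7.16% of all genes). Airway and lung genes (5 of 7 higher, sum 1145 to 1568 in KD, 182 to 235 in SCR and 296 to 339 in WT), gland genes (4 of 6, sum 1278 to 1862, 77 to 132 and 81 to 117) and urothelial genes (2 of 2, sum 229 to 380, 32 to 38 and 36 to 44) also had their highest sums in KD. Trophoblast genes gave 3 of 6 higher and 1 lower, with a sum of 281 to 4557 in KD, 333 to 386 in SCR and 692 to 717 in WT. Melanocyte genes gave 0 of 5 in limma, with 2 of 5 at an adjusted p under 0.05 and no fold limit (64.8% of all genes), and Tyr, which defines the cell type, lay below the lower quartile of all arrays of day 22. Genes of pluripotent cells were lower in 9 of 12, with a sum of 14711 to 14954 in KD, 27250 to 32505 in SCR and 30356 to 30811 in WT. These lists tell members and other epithelia apart only in part, since Krt4, Krt13 and Krt5 are also made by oesophagus, forestomach, bladder or airway.

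**Figure D5:**
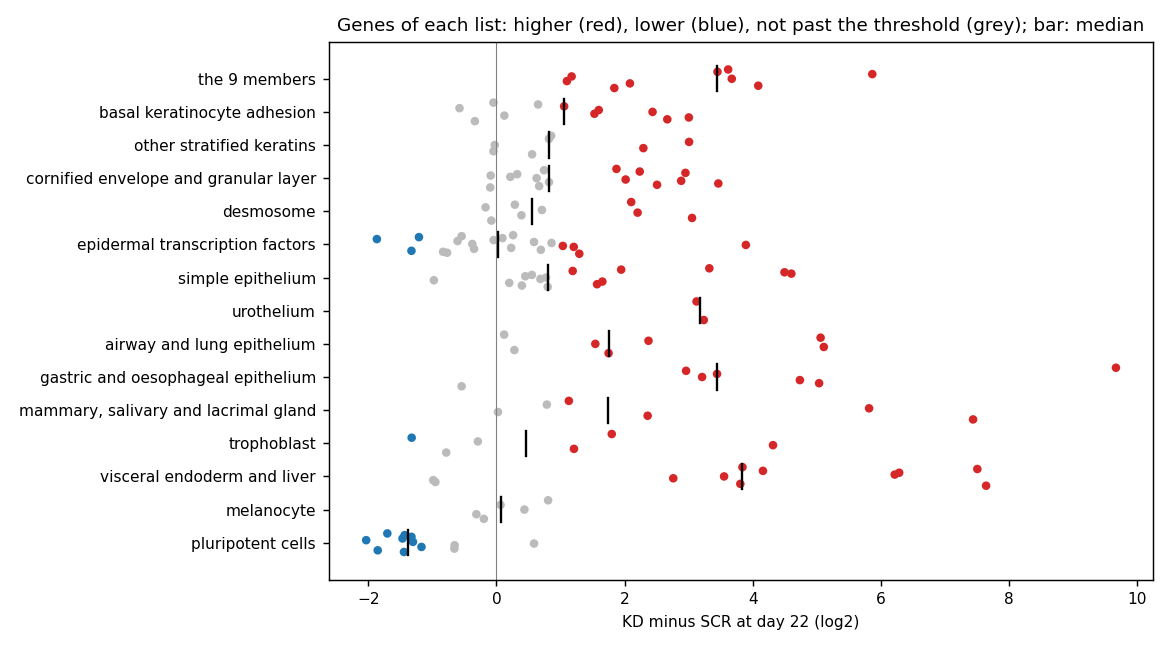
Log2 difference of KD minus SCR in 22-day EBs (horizontal axis) for every measured gene of each list (rows; the 9 members are the first row), red where higher and blue where lower past the threshold, grey otherwise, with a bar at the median of the list. The 9 members are all red with a median of 3.45, the pluripotent list is mostly blue, and gastric and liver genes reach the largest values.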

How the data were processed

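The 54 arrays were grouped by line and day from the sample titles. The authors deposited log2 values, made by RMA (background correction, normalization between arrays and probe summary); the submitters' notes name Affymetrix Expression Console and Partek 6.6, and R Bioconductor packages are named in the study's methods. The number of arrays limits the precision. No further normalization was applied. Of 30939 probe sets, 25596 had 1 symbol, 685 several and 4658 none. Each of 14104 genes was read from 1 probe set, the one with the highest overall mean among those whose only symbol was that gene.

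All 54 arrays entered one linear model with a mean for every one of the 18 groups (limma 3.58.1 with eBayes, in R 4.3.3). Lines were compared on each day, days within each line, and lines in the change from day 12 to day 22. The Benjamini-Hochberg adjustment of a contrast took in every probe set. The lists name up to 4 genes each by largest change in 22-day KD against SCR EBs. Plec, Col17a1, Krt1, Krt10, Sprr3, Ppl, Ivl, Lor, Elf5, Elf3, Tfap2c, Tfap2a, Tfap2b, Hopx, Ovol2 and Tyr were named after their values were seen. The same holds for Itga6, Itga3, Dst, Cdh3, Col7a1, Jup, Pkp2, Pkp3, Dsc1 and Dsc3. Members and lists were chosen with earlier results of these data known. The fit was tested on simulated data. Alternatives were median centring, quantile normalization, array weights, trended eBayes, only the arrays compared, the brightest 60% of probe sets, the mean of a gene's probe sets, no fold minimum, a replicate block and leaving out each array; leaving out replicate 3 everywhere and the other probe set of Krt6a were chosen after seeing the data. Promoter windows came from RefSeq; motifs were searched by exact match.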

Additional observations from a re-analysis of the deposited data

Results flagged for a closer look

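The change from day 12 to day 22 differed between the lines, by a test of the difference itself in limma, for 7 of 9 members. KD minus SCR and KD minus WT were 3.71 and 3.54 for Krt4, 3.24 and 3.42 for Krt13, 3.00 and 3.08 for Krt14, and 2.71 and 3.53 for Sprr1a, all on the log2 scale. They were 1.73 and 1.98 for Krt6a, 1.15 and 1.23 for Krt17, and 1.04 and 2.71 for Krt15. The 2 comparisons have the KD arrays in common.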

How the results depend on the processing

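Of 83 differences of single members that passed the threshold, 0 changed direction under any alternative. With the replicate block (arrays of the same number as a block) 83 of 83 kept their side of the threshold; every same-number correlation of deviations was over 0.1 in 6 of 18 comparisons (KD against SCR on days 0, 2 and 12, KD against WT on day 4, and SCR against WT on days 0 and 22; range over all -0.4 to 0.501), so the numbers were not taken to pair the arrays across the study. Array weights kept 80, the mean of a gene's probe sets 79, and median centring and quantile normalization 78 each; the trended eBayes fit and the fit on only the arrays compared kept all 83. With replicate 3 left out everywhere, an alternative chosen after seeing the data, 80 were kept. Replicate 3 lay nearest the mean of the other arrays in 17 of 18 groups, all but 22-day KD; if it is not independent of them, the SEs and p values given are too small.

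Keeping the brightest 60% of probe sets left 0 of 9 members, so each count that was above 0 became 0 by construction. Without a fold minimum the counts were 1 (KD against SCR, day 0), 6 (day 12) and 9 (day 15), 8 (KD against WT, day 15), 1 (SCR against WT, day 0) and 4 (day 15), where 17.7%, 59.7%, 62.1%, 68.7%, 13.2% and 46.1% of all genes passed; against day 0 they were 1, 3, 5 and 2 in WT on days 2, 4, 15 and 22, 1, 2, 1 and 1 in SCR on days 4, 12, 15 and 22, and 1, 4 and 5 in KD on days 2, 4 and 12; and 3 in WT between days 12 and 22, where 35.7% (WT, days 12 to 22) to 76.5% (KD, day 12) of all genes passed. In SCR against WT, day 15 gave 2 with median centring, quantile normalization or replicate 3 left out, and day 12 gave 1 with replicate 3 left out. In WT, day 12 against day 0 gave 1 with median centring and with quantile normalization. Array weights gave 2 in WT on day 4, on day 15 and between days 12 and 22, and 1 in KD on day 4.

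Leaving out 1 array gave 8 to 9 members for KD against SCR and against WT on day 22, 6 to 7 and 5 to 6 on day 15, and 5 to 7 for the change from day 12 to day 22 in KD minus SCR. SCR against WT gave 1 to 2 on day 12 and 0 to 2 on day 15; WT against day 0 gave 0 to 1 on day 4 and 1 to 2 on day 15, and WT between days 12 and 22 gave 1 to 2. KD against day 0 gave 1 to 2 on day 4 and 5 to 6 on day 15, and KD between days 12 and 22 gave 6 to 7. The cause of these shifts was not tested.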
